A study of Mus musculus with 6 samples.

Results

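Long non-coding RNA genes are transcribed and processed much like coding genes but have no long open reading frame that is known to be translated. The 427 described here, of 13675 genes listed, are those whose Ensembl ID GENCODE M21 files under lincRNA (149 genes), antisense (154), processed transcript (92), bidirectional promoter lncRNA (17), sense intronic (13) or sense overlapping (2). Their mean over the 6 libraries was at least 30 normalized counts, and genes on the X chromosome were left out. The annotation holds 10150 genes of these 6 types, of which 862 were listed, 426 fell below the level and 9 were X-linked. The genes were chosen by this mean level over all libraries, which is given as a description: just inside stood 0610009L18Rik at 30.01, Gm27240 at 30.07 and Gm11423 at 30.45 normalized counts, and just outside Gm26628 at 29.97, AC157931.1 at 29.48 and E230016K23Rik at 29.42. The group labels played no part in that choice. Gm4208 and 5830444B04Rik were named as examples of the set with their values known, so these genes are described without a test.

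The libraries came from donor CD8+ T cells with the OT-I transgene, a T cell receptor that recognises a peptide of ovalbumin, and with the CD45.2 allele. Donor cells were OT-I CK2αfl/fl in the control-labelled group (3 libraries) and OT-I CK2αfl/fl dLck-Cre, also labelled CK2α-/-, in the knockout-labelled group (3 libraries); both groups carry the loxP-flanked allele of CK2α, a catalytic subunit of the protein kinase CK2, and Cre is driven by the distal promoter of Lck. Cells of each genotype were put into separate CD45.1 B6 hosts, which were infected with Listeria monocytogenes expressing ovalbumin, and CD8+ T cells bearing CD45.2 were sorted from the spleen on day 7. Age and pooling of the mice, and whether each library is from its own animal, are not in the labels. The p-values therefore set the difference between the groups against the spread of these samples alone, and that spread may be technical.

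The libraries held 14746864 to 22931296 reads over the listed genes. Csnk2a1, which encodes CK2α, had 1645 to 1847 normalized counts under the control label and 2786 to 2875 under the knockout label (log2 fold change 0.72, adjusted p = 0.000865), the reverse of a loss of transcript. A count over the whole gene does not check the deletion of part of it, so each direction is stated for knockout-labelled against control-labelled libraries. All 8 markers of CD8+ T cells were detected and 0 of 8 were called, beside 5.19% of all genes tested. Cd8a stood at 25233 to 31515 normalized counts. B cell markers were higher in the knockout-labelled libraries: 14 of 14 had a positive change, Cd22 and Ighm passed the test, none was at 0, and their summed level was 3694 to 4328 in control-labelled and 5960 to 8971 in knockout-labelled libraries. Their mean log2 level was 5.70 in knockout-labelled library 1, within the control range of 5.61 to 5.91, but 7.88 and 7.78 in libraries 2 and 3. In bulk samples, fewer cells of a type and less RNA per cell cannot be told apart.

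Long non-coding RNAs act in several ways. Some build nuclear bodies or bind chromatin regulators, some carry small nucleolar RNAs (snoRNAs) or microRNAs in their introns or exons and are mainly the wrapping of those small RNAs, and some regulate the gene next to them through the act of transcription, with no need for the RNA itself. In T cells they have been described at loci of cytokines, of survival genes and of lineage regulators, and many are expressed in narrower windows of differentiation than coding genes.

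The class was checked against a second annotation. RefSeq held 271 of the 427 by symbol or synonym and filed 245 as long non-coding RNA, 21 as protein coding and 5 as pseudogenes; 156 were not matched. The 21 that RefSeq counts as coding include Cct6a, a subunit of the cytosolic chaperonin. Of these 21, 0 were called, beside 5.19% of all genes tested. The gene bodies of 274 overlap that of a coding gene and 153 do not. For 197, some exon bases lie opposite the exons of a coding gene, and since the use of strand in counting is not given in the sources used here, reads from such partners cannot be told apart.

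Most of these genes were expressed at low levels. Their median was 75.3 normalized counts, against 529 for coding genes, 273 of the 427 were below 100 and 25 were over 1000, and together they held 0.629% to 0.800% of the normalized counts of a library. Malat1, a nuclear RNA of the splicing speckles, had the highest level at 17125. It was followed by Gm42418 at 10733, AW112010 at 5148, Gm26917 at 4250, 1700020I14Rik at 4004, AI506816 at 3131, Tug1 at 2981, AU020206 at 2867, Neat1 at 2830 and Gm44175 at 2785. These are levels per gene; per kilobase of annotated exon the order began with Gm44174 at 10979 normalized counts per kilobase, AW112010 at 6403 and Gm42418 at 5862, with Malat1 at 2452. Gm44174 has 141 annotated exon bases and lies 143 bases from Cd8a, and next to it Gm44175 lies 12598 bases from the same gene, which encodes the CD8 α chain. Gm44174 stood at 1961, 1460 and 1953 normalized counts in control-labelled libraries 1 to 3 and at 786, 1623 and 1505 in knockout-labelled libraries 1 to 3, with groups that overlapped and a log2 fold change of -0.51 (adjusted p = 0.24).

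Of the 427 genes, 21 were called by limma (Benjamini-Hochberg adjusted p below 0.05), which is 4.92%, beside 5.19% of the 13654 genes tested. The fit put 6 of them higher in the knockout-labelled libraries (1.41%, beside 2.04% of all genes) and 15 lower (3.51%, beside 3.15%). With edgeR on the recovered reads 17 were called, 6 of them higher (4.72% of all genes), and with DESeq2 25, 7 of them higher (7.37% of all genes). As a class long non-coding RNA genes were called about as often as other genes. Values did not overlap between the groups for 100 of the 427 (23.4%, beside 25.7% of all genes), among them all 21 called. Called genes had a median absolute log2 fold change of 0.76, and 6 of them reached 2-fold. By level, 1 of the 142 genes of lowest level was called, 5 of the 143 in the middle and 15 of the 142 of highest level. The standard error of the log2 fold change was 0.22 in the median gene of the set and 0.12 in the median gene of the whole table. Among genes between the set's quartiles of level (45.2 to 164 normalized counts), the median within-group SD on the log2 scale was 0.25 for the 213 long non-coding genes and 0.24 for 1618 coding genes, and 3.76% and 5.81% were called.

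**Figure D1:**
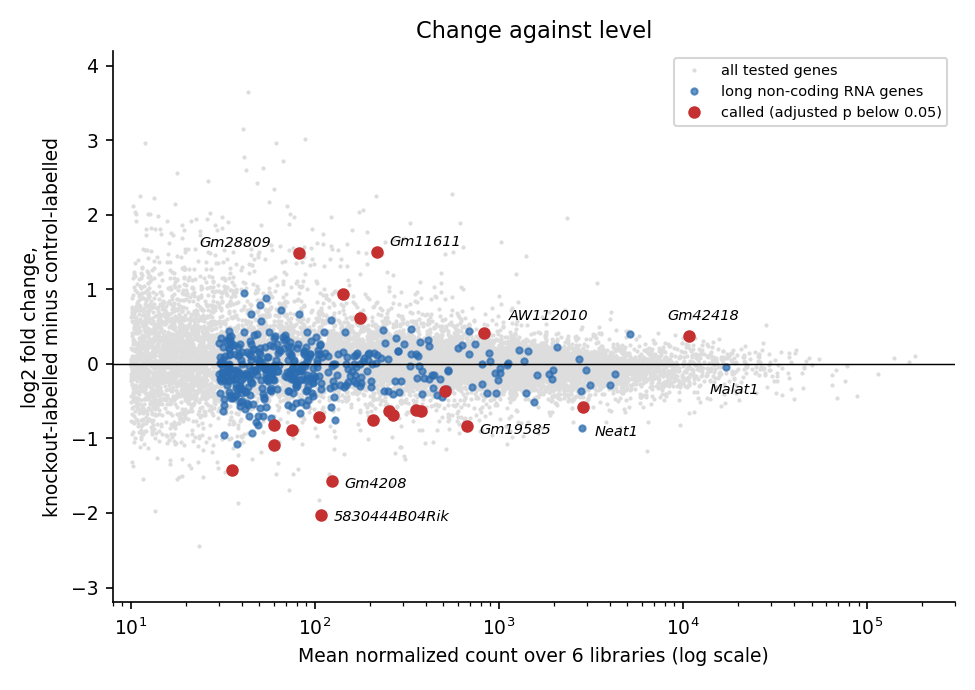
Each point is a gene, with its mean normalized count over 6 libraries on a logarithmic x axis and its log2 fold change, knockout-labelled minus control-labelled, on the y axis; grey points are all tested genes, blue points long non-coding RNA genes and red points those called at an adjusted p below 0.05. The 15 called genes that were lower include 5830444B04Rik and Gm4208 at the bottom, and the 6 that were higher include Gm28809 and Gm11611 at the top.

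The number of calls rested on single libraries, in the set as in the whole table. Without control-labelled library 2 there were 13 higher and 36 lower in the set, and 14.9% of all genes were called. Leaving out control-labelled library 1 gave 3 higher and 5 lower (2.73% of all genes), and leaving out control-labelled library 3 gave 1 and 4 (1.67%). Leaving out knockout-labelled library 1, 2 or 3 gave 1 higher each time, with 8, 5 and 4 lower (3.24%, 2.35% and 1.47% of all genes). Apart from 5830444B04Rik and Gm4208, which were named with their values known and are counted among the 21 without serving as support, Gm19585 kept its call in each of these 6 runs. Without knockout-labelled libraries 2 and 3 together, 0 genes of the set and 0 of all were called by limma (55 of the set had an unadjusted p below 0.05), and all 21 kept their sign; with 1 library in that group, its spread was taken from the others. The library that remained was not free of higher B cell markers, with Cd22 at 734 against 302 to 328 and Ighm at 4784 against 2883 to 3518 normalized counts in the control-labelled libraries. With the B cell level entered as a covariate, 4 were called (0.857% of all genes), 3 of them among the 21 (5830444B04Rik, Gm19585 and Gm4673), and all 4 lower; the other was Gm44174.

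The balance of signs leaned to the lower side: 264 of the 427 had a negative and 163 a positive log2 fold change, with a median of -0.09 beside 0.006 for all tested genes. Set against the mean of the control-labelled libraries, the median gene of the set lay at 0.12, -0.15 and 0.02 in control-labelled libraries 1 to 3 and at -0.11, -0.07 and -0.05 in knockout-labelled libraries 1 to 3. The 3 knockout-labelled medians thus lay inside the control range. Without control-labelled library 1 the median fold change was 0.005, and without control-labelled library 2 it was -0.19.

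**Figure D2:**
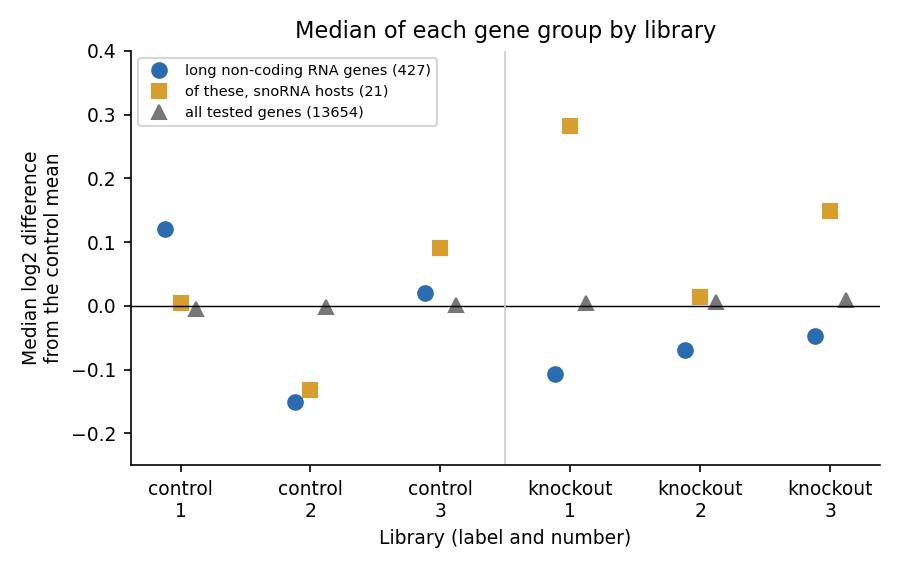
The y axis gives, for each library on the x axis, the median log2 difference of a gene group from the mean of the control-labelled libraries; circles are the 427 long non-coding RNA genes, squares the 21 of them that hold snoRNA genes and triangles all 13654 tested genes. The control-labelled circles run from -0.15 to 0.12 and enclose the knockout-labelled ones, while the triangles stay near 0.

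The lower genes begin with 5830444B04Rik (ENSMUSG00000084803, processed transcript, chr4:155398763-155421704, minus strand, mm10). It stood at 184, 151 and 191 normalized counts in control-labelled libraries 1 to 3 and at 41.7, 41.6 and 42.7 in the knockout-labelled ones. The knockout-labelled values lie within a few counts of each other, far under the lowest control-labelled value. The log2 fold change was -2.03 (95% interval -2.40 to -1.66), which is 4.08-fold lower. The gene overlaps Cfap74, a cilium and flagellum associated gene on the other strand, and 8.37% of its exon bases lie opposite Cfap74 exons. Cfap74 stood at 133, 111 and 95.5 against 42.6, 42.9 and 33.7 normalized counts (log2 fold change -1.48 ± 0.20 SE, adjusted p = 0.0038).

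Gm4208 (ENSMUSG00000100426, lincRNA, chr1:62821355-62832370, minus strand) stood at 194, 132 and 233 normalized counts in the control-labelled and at 54.7, 54.2 and 73.4 in the knockout-labelled libraries. Each knockout-labelled value lay below each control-labelled one, and the log2 fold change was -1.58 (95% interval -2.08 to -1.08), or 2.98-fold lower. Its nearest coding gene, 2660 bases away, is Nrp2, which encodes the receptor neuropilin-2 and stood at 558 ± 59.1 against 419 ± 36.1 (SD of 3 libraries; log2 fold change -0.41, adjusted p = 0.0542). The RefSeq promoter window of Gm4208 (GRCm38.p6, chr1:62838076-62838375, minus strand) is shown because this gene had the largest fall among those with an entry. It surrounds a start that lies several kilobases upstream of the GENCODE start. Capitals mark the TCF/LEF letters CTTTGA and the AP-1 letters TGANTCA, searched on both strands with no overlap here.
Gm4208 promoter: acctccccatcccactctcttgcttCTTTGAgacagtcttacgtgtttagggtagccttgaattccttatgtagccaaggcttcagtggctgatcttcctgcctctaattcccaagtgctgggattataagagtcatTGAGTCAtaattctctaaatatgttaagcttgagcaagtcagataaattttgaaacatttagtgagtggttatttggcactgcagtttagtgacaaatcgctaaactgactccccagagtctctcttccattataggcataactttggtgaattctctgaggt
The TCF/LEF letters occur in 16.02% and the AP-1 letters in 7.79% of 32544 promoter windows of the same length, and in 13.3% and 4.43% of the 203 windows found for the set. A match is a description of the letters and says nothing of binding.

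Gm19585 (lincRNA, chr17:51986415-52163976, plus strand) had a call that held in each of the 6 runs that left out a library. It stood at 829, 846 and 897 normalized counts in the control-labelled and at 487, 431 and 530 in the knockout-labelled libraries, with a wide gap between the groups. The gene fell by 0.83 ± 0.09 (SE) on the log2 scale (adjusted p = 0.00152; highest adjusted p without a library 0.0107). The nearest coding gene, Satb1, a chromatin organiser of T cells, starts 153125 bases away and stood at 6349 ± 259 against 6930 ± 602 normalized counts (log2 fold change 0.12, adjusted p = 0.412).

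Several of the other lower genes start beside a coding gene on the other strand. Of the 40 genes of the set that lie head to head with a coding gene within 2000 bases, 5 were called lower and 1 higher, beside 3.15% and 2.04% of all genes; the difference was not tested. A430093F15Rik, 1945 bases from Cd5, stood at 309, 361 and 317 against 237, 189 and 187 normalized counts and fell by 0.69 ± 0.13 (SE; adjusted p = 0.0144). Cd5, an inhibitory co-receptor of T cell receptor signalling, stood at 5481, 6205 and 5823 against 3499, 3397 and 2815 and fell by 0.85 ± 0.09 (adjusted p = 0.00114), so both genes of this pair were separated between the groups in the same direction. The other 4 had neighbours that did not pass the test. F730043M19Rik, 96 bases from Atxn7l1, fell by 0.76 (adjusted p = 0.0109) beside -0.19 for its neighbour. For 2810001G20Rik, 16 bases from the haem biosynthesis gene Cox10, the change was -0.64 (adjusted p = 0.0201) beside -0.36. Gm43672, 510 bases from the corepressor gene Tbl1xr1, had -0.72 (adjusted p = 0.0463) beside -0.11, and A430046D13Rik, 679 bases from Myl6b, had -0.62 (adjusted p = 0.0272) beside -0.08.

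The remaining lower genes lie elsewhere. Gm26581, within the span of H60b, a ligand gene of the receptor NKG2D, stood at 79.7, 37.7 and 41.1 against 16.7, 15.1 and 22.8 normalized counts with a log2 fold change of -1.42. Its control-labelled values spread widely but stayed above the others. At 18.2 ± 4.07 normalized counts in the knockout-labelled group (SD, n = 3), it reached the level of 30 through the control-labelled group alone, as did no other called gene, so it is counted among the 15 but its fall is given as a description. Gm27194 fell by 1.09 (adjusted p = 0.047), 2810468N07Rik, opposite Sox8, by 0.89 (adjusted p = 0.0331), and Gm28875 by 0.83 (adjusted p = 0.0485). Gm28875 lies 3244 bases from Syne3, which encodes nesprin-3 of the nuclear envelope and itself fell by 0.77 (adjusted p = 0.00243). AU020206, 14429 bases from Akap13, was the most abundant of the lower genes at 3454 ± 657 against 2280 ± 92.9 normalized counts (SD, n = 3 each), and 5830432E09Rik, opposite the phosphatase gene Ptpre, had the smallest called change at -0.36 (adjusted p = 0.0416).

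Gm4673 and its neighbour were the single pair in which both genes were called with opposite signs. This antisense gene (chr7:30956909-30961619, plus strand) overlaps Lsr, a lipoprotein receptor gene on the other strand, and 21.2% of its exon bases lie opposite Lsr exons. Gm4673 stood at 495, 464 and 424 against 259, 299 and 333 normalized counts and fell by 0.64 ± 0.12 (SE; adjusted p = 0.0134). Lsr stood at 32.7, 45.6 and 45.3 against 120, 126 and 103 and rose by 1.49 ± 0.20 (SE; adjusted p = 0.00367). Both genes separated the groups without overlap, in opposite directions.

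Among the lower calls other than 5830444B04Rik, Gm4208 and Gm19585, F730043M19Rik lost its call when library 3 of either group was left out (highest adjusted p 0.0651), and Gm4673 when the first control-labelled or the second knockout-labelled library was (0.0519). A430093F15Rik lost its call without control-labelled library 3 or knockout-labelled libraries 2 or 3 (0.0814). For 2810001G20Rik and A430046D13Rik it was lost without control-labelled libraries 1 or 3 or knockout-labelled libraries 2 or 3 (0.0985 and 0.129), and for Gm27194 without control-labelled libraries 1 or 3 or knockout-labelled libraries 1 or 3 (0.179). Gm26581, 2810468N07Rik, Gm43672, AU020206 and 5830432E09Rik kept it without control-labelled library 2 and lost it without each other library (0.112 to 0.17), and Gm28875 lost it in every such run (0.165).

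**Figure D3:**
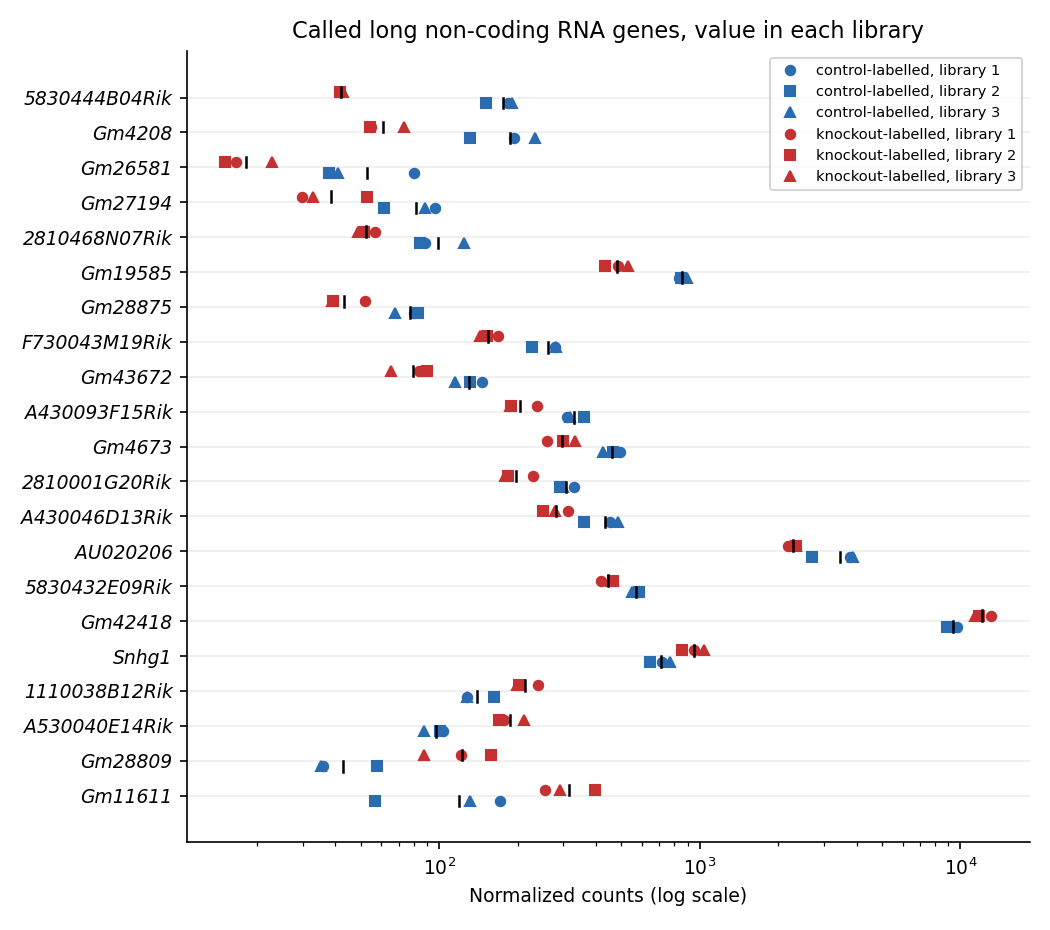
Normalized counts on a logarithmic x axis of the 21 called long non-coding RNA genes, one per line; blue symbols are control-labelled and red symbols knockout-labelled libraries, the symbol shape gives the library number and black bars are group means. No red and blue symbols of a gene overlap in value, and the widest gap is that of 5830444B04Rik, at 151 to 191 against 41.6 to 42.7.

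The 6 higher genes were of different kinds. Gm11611 (sense intronic, chr11:97519612-97521895, minus strand) lies inside Srcin1, a gene for an inhibitor of Src kinases, on the same strand and shares 0 exon bases with it. It stood at 171, 56.5 and 132 against 256, 397 and 291 normalized counts, with control-labelled library 2 the lowest, and rose by 1.503 ± 0.34 (SE; adjusted p = 0.0323). Srcin1 stood at 1106, 386 and 898 against 1857, 2511 and 1692, with the same library lowest, and rose by 1.45 ± 0.32 (adjusted p = 0.0276). Reads of unspliced Srcin1 RNA and of Gm11611 cannot be told apart. Without control-labelled library 3 or any 1 of the knockout-labelled libraries, Gm11611 lost its call (highest adjusted p 0.131).

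Gm28809 (antisense, chr6:125481363-125484678, plus strand) lies opposite Cd9, a tetraspanin gene, and shares 0 exon bases with it. It stood at 35.8, 57.5 and 35.2 against 121, 158 and 87.3 normalized counts and rose by 1.49 ± 0.27 (SE; adjusted p = 0.0127). Cd9 stood at 431, 419 and 325 against 752, 688 and 727 and rose by 0.89 ± 0.12 (adjusted p = 0.00278). Both genes of the pair were higher in each knockout-labelled library than in any control-labelled one. Gm28809 lies within the span of Cd9. Since the use of strand in counting is not given, reads of unspliced Cd9 RNA and of Gm28809 cannot be told apart. Gm28809 lost its call without control-labelled library 3 or knockout-labelled libraries 1 or 2 (highest adjusted p 0.0592).

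A530040E14Rik (antisense, chr1:85105946-85114035, plus strand) stood at 103, 101 and 87.2 against 178, 170 and 211 normalized counts and rose by 0.93 ± 0.15 (SE; adjusted p = 0.00722). Its call was lost in 1 run, without knockout-labelled library 3 (adjusted p = 0.0502). The gene lies among near-identical gene copies on chromosome 1, so how the authors' counting shared reads between them is uncertain. Gm42418 (chr17:39846958-39848788) overlaps an annotated ribosomal RNA gene. It stood at 9701, 8897 and 9487 against 13163, 11746 and 11403 normalized counts, a rise of 0.37 ± 0.08 (SE, adjusted p = 0.0257). Gm42418 kept its call without control-labelled library 2 and lost it without each other library (highest adjusted p 0.106). Next to it Gm26917 stood at 4454 ± 223 against 4047 ± 190 (SD, n = 3 each; log2 fold change -0.14, adjusted p = 0.289), so these neighbours at the ribosomal RNA locus had changes of opposite sign.

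Snhg1 and 1110038B12Rik, the other two higher genes, both hold snoRNAs. Such host genes release snoRNAs from their introns during splicing; snoRNAs then guide chemical modification or cleavage of ribosomal RNA, and several hosts have spliced RNAs that are unstable. Snhg1 (chr19:8723475-8726443, plus strand) stood at 720, 645 and 768 against 951, 857 and 1035 normalized counts and rose by 0.41 ± 0.10 (SE; adjusted p = 0.0386). 1110038B12Rik (chr17:34950238-34952471, minus strand) stood at 128, 163 and 128 against 239, 203 and 198 and rose by 0.61 ± 0.15 (SE; adjusted p = 0.0394). Groups did not overlap for either gene, but both kept the call without control-labelled library 2 and lost it without each other library (highest adjusted p 0.169 and 0.162). Slc3a2, 106 bases from Snhg1 and encoding the CD98 heavy chain of amino acid transporters, stood at 2405 ± 204 against 2179 ± 175 (SD, n = 3 each; log2 fold change -0.14). Hspa1b, the inducible heat shock protein gene 3965 bases from 1110038B12Rik, stood at 477, 722 and 1256 against 2406, 1317 and 7948 normalized counts (log2 fold change 1.95, adjusted p = 0.0693). The order of the libraries in Hspa1b, with knockout-labelled library 3 far the highest, differs from that in 1110038B12Rik, where library 3 is the lowest of its group.

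The small RNAs that these hosts carry show why they are grouped. Box C/D snoRNAs are recognised by a C box near the start and a D box near the end. In the sequences below, from GENCODE M21 on GRCm38, capitals mark a C box written ATGATGA or GTGATGA and a D box written CTGA, where each is present.
Snord52 in 1110038B12Rik (chr17:34950952-34951017, minus strand): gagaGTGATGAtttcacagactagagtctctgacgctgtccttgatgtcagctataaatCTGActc
Gm25744 in 1110038B12Rik (chr17:34952013-34952075, minus strand): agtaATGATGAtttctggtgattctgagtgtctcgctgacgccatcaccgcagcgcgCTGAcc
Gm22680 in Snhg1 (chr19:8725341-8725409, plus strand): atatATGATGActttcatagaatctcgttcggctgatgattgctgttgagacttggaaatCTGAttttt
Gm24452 in Snhg1 (chr19:8724531-8724602, plus strand): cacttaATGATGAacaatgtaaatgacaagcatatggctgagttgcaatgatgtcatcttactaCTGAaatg
Snord22 in Snhg1 (chr19:8725866-8725991, plus strand): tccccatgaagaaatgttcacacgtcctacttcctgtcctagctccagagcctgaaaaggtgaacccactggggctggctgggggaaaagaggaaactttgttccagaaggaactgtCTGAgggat
Both snoRNAs of 1110038B12Rik and 5 of the 8 of Snhg1 have both boxes in these letters, and Snord22 has the D box letters alone. The counts analysed are those of the host genes, and whether reads of the snoRNAs entered them is not given in the sources used here.

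Grouping the set by hosted RNAs was done after values had been seen. Of the 427 genes, 21 contain an annotated snoRNA or small Cajal body RNA; 2 were called higher and 0 lower, beside 2.04% and 3.15% of all genes. A positive log2 fold change was found in 17 of the 21, with a median of 0.15, beside 146 of the 406 other genes, with a median of -0.10. The 21 include Cct6a, which RefSeq files as protein coding. The median level was 277 normalized counts for the hosts and 73.1 for the other genes. Snhg6 (0.34), Snhg5 (0.29), Snhg8 (0.26), Snhg15 (0.25), Snhg12 (0.17) and Zfas1 (0.15) were on the positive side with adjusted p of 0.135 to 0.482. Gas5, the host with the second highest level and 12 snoRNAs, stood at 2750, 2421 and 2853 against 3153, 2639 and 2640 normalized counts (log2 fold change 0.07), with overlapping groups. AI506816, the most abundant host, had -0.28 (adjusted p = 0.172). The median host lay at 0.005, -0.13 and 0.09 from the control mean in control-labelled libraries 1 to 3 and at 0.28, 0.01 and 0.15 in knockout-labelled libraries 1 to 3, so knockout-labelled library 2 lay inside the control range. The number of hosts with a positive change was 14 without knockout-labelled library 1 and 15 to 18 without any other library, and it was 18 when knockout-labelled libraries 2 and 3 were both left out or the B cell covariate was used.

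**Figure D4:**
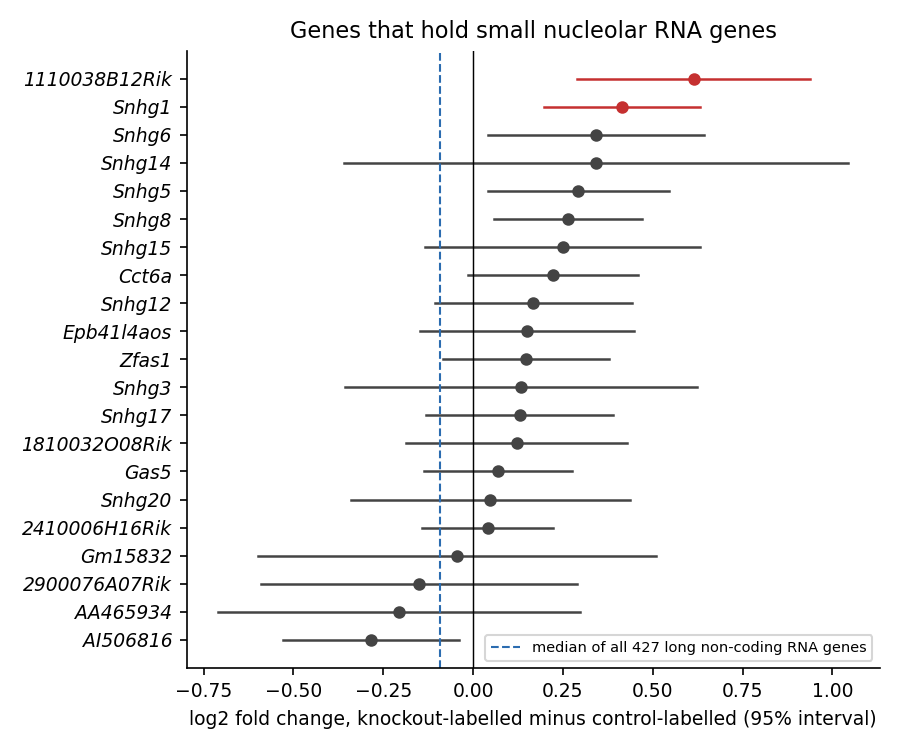
The x axis gives the log2 fold change, knockout-labelled minus control-labelled, of the 21 genes that hold snoRNA genes, with lines for 95% intervals; red marks the 2 called genes and the dashed line is the median of all 427 long non-coding RNA genes, at -0.09. Points of 17 genes lie to the right of 0, and most of the intervals cross it.

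Genes for proteins of snoRNA particles in general were counted beside the hosts. Of 11 genes for the core proteins of snoRNA particles and their assembly, 0 passed the limma test, beside 5.19% of all genes. All 11 had a positive change, with a median of 0.17 beside 0.006 for all tested genes. Among them, Nhp2 (0.0005) and Nop10 (0.006) hardly changed. Nop58, a core protein of box C/D particles, stood at 984 ± 131 against 1322 ± 168 normalized counts (SD of 3 libraries; log2 fold change 0.43, adjusted p = 0.0665), and Fbl, the methyltransferase fibrillarin, at 1535 ± 217 against 1808 ± 70.4 (0.25, adjusted p = 0.183).

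Host genes of microRNAs formed a smaller group of 12 genes in the set. Of these, 0 were called (5.19% of all genes) and 4 had a positive change, with a median of -0.09. The mature microRNAs of the best known hosts are shown, from RefSeq (GRCm38.p6), with the seed (bases 2 to 8) in capitals, because shared seeds show which of them can pair with the same targets.
miR-15a-5p in Dleu2: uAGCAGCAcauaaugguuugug
miR-16-5p in Dleu2: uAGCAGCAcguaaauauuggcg
miR-17-5p in Mir17hg: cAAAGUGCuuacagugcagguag
miR-20a-5p in Mir17hg: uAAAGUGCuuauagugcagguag
miR-19a-3p in Mir17hg: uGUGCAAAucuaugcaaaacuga
miR-19b-3p in Mir17hg: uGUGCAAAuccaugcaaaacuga
miR-142a-3p in Mir142hg: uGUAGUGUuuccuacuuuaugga
miR-22-3p in Mir22hg: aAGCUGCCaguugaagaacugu
The pair from Dleu2, known for restraining the cell cycle, shares AGCAGCA. In the cluster of Mir17hg, known for driving lymphocyte expansion, one pair shares AAAGUGC and another GUGCAAA. Dleu2 stood at 459, 403 and 389 against 432, 331 and 339 normalized counts (log2 fold change -0.19, adjusted p = 0.425). Mir17hg stood at 112, 54.5 and 64.5 against 84.3, 55.5 and 69.4 (-0.09, adjusted p = 0.889), with control-labelled library 1 the highest. Groups overlapped for both hosts. Mir142hg, host of a microRNA of blood cells, stood at 645, 322 and 604 against 416, 377 and 527 (-0.20, adjusted p = 0.676), and Mir22hg at 142, 82.3 and 93.9 against 95.4, 106 and 99.2 (-0.04). In both, control-labelled library 2 was the lowest of the 6. These are counts of the host transcripts and not of the mature microRNAs. Of 15 genes for microRNA processing proteins, 0 passed the limma test (5.19% of all genes), with a median of -0.03.

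Among the abundant nuclear RNAs, Malat1, Neat1 and Miat spread widely between the control-labelled libraries, and Tug1 and 1700020I14Rik did not. Malat1 stood at 23044, 11604 and 18312 normalized counts in the control-labelled and at 15021, 16042 and 18728 in the knockout-labelled libraries, and its log2 fold change of -0.04 (95% interval -0.49 to 0.41) was 0.18 without control-labelled library 1 and -0.31 without control-labelled library 2. Neat1, the scaffold of paraspeckles, stood at 5439, 2280 and 3475 against 1856, 1989 and 1943 (-0.86 ± 0.24 SE, adjusted p = 0.0647). The knockout-labelled values of Neat1 were close to each other and below all control-labelled ones, and control-labelled library 2 lay nearest to them. Miat stood at 823, 219 and 895 against 668, 797 and 754, so that its change of 0.44 was -0.22 without control-labelled library 2. Tug1 was steady at 3063 ± 36.2 against 2898 ± 202 (SD, n = 3 each; -0.08, 95% interval -0.24 to 0.07), and 1700020I14Rik stood at 4388 ± 273 against 3620 ± 191 (-0.28, adjusted p = 0.0577). In all, 11 genes of this list were tested, 0 were called by limma (5.19% of all genes) and 4 had a positive change. The 11 include Rn7sk, Lncpint and Meg3, which had group means below 30 normalized counts and are outside the set. Of 15 genes for proteins of paraspeckles and nuclear speckles, 0 were called (5.19% of all genes) and 9 had a positive change.

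Among 12 tested genes of a list of immune and lymphocyte RNAs, 2 were called, both lower (3.15% of all genes): Gm19585 and A430093F15Rik, described above. The 12 include 4930523C07Rik, A630001G21Rik and Gm8369, filed as protein coding, the pseudogene BC064078, and Mir155hg, which had group means below 30 normalized counts. All of these are outside the set. AW112010, an interferon-responsive RNA of immune cells in mice, was one of 2 of the 12 on the positive side. It stood at 4120, 5003 and 4199 against 6535, 5815 and 5218 normalized counts, without overlap (0.40 ± 0.10 SE, adjusted p = 0.0505). Gm26740, which spans the same region as Gm26581 on the other strand, stood at 660, 509 and 543 against 451, 401 and 400 (-0.44 ± 0.11 SE, adjusted p = 0.0509). Gm14005, known as Morrbid and described in mice as a repressor of the neighbouring Bcl2l11, stood at 135, 220 and 142 against 131, 125 and 156 (-0.24, 95% interval -0.68 to 0.19), with overlapping groups. Bcl2l11, which encodes the death-promoting protein BIM, fell by 0.98 (1571 ± 137 against 797 ± 42.5 normalized counts, SD, n = 3 each; adjusted p = 0.000427). Of 8 tested imprinted RNAs, 0 were called by limma (5.19% of all genes). Peg13 had the smallest p among those in the set, at 366 ± 46.6 against 456 ± 27.6 (0.32, adjusted p = 0.131).

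For 383 genes of the set the nearest coding gene was tested as well. The signs of both log2 fold changes were the same in 231 pairs (60.3%), where 38.1% of the long non-coding and 41.3% of the coding genes were positive. Across these pairs, which come from the same libraries and in many cases share bases, Pearson's r was 0.41 and Spearman's rho 0.30, given as a description. The share of pairs with the same sign was 65.0% of the 40 head-to-head pairs, 59.9% of the 212 that overlap on opposite strands, 63.9% of the 36 that overlap on the same strand and 57.9% of the other 95. Among the 135 pairs that do not overlap it was 60.0%. Without control-labelled library 1 the share over all pairs was 55.9%.

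**Figure D5:**
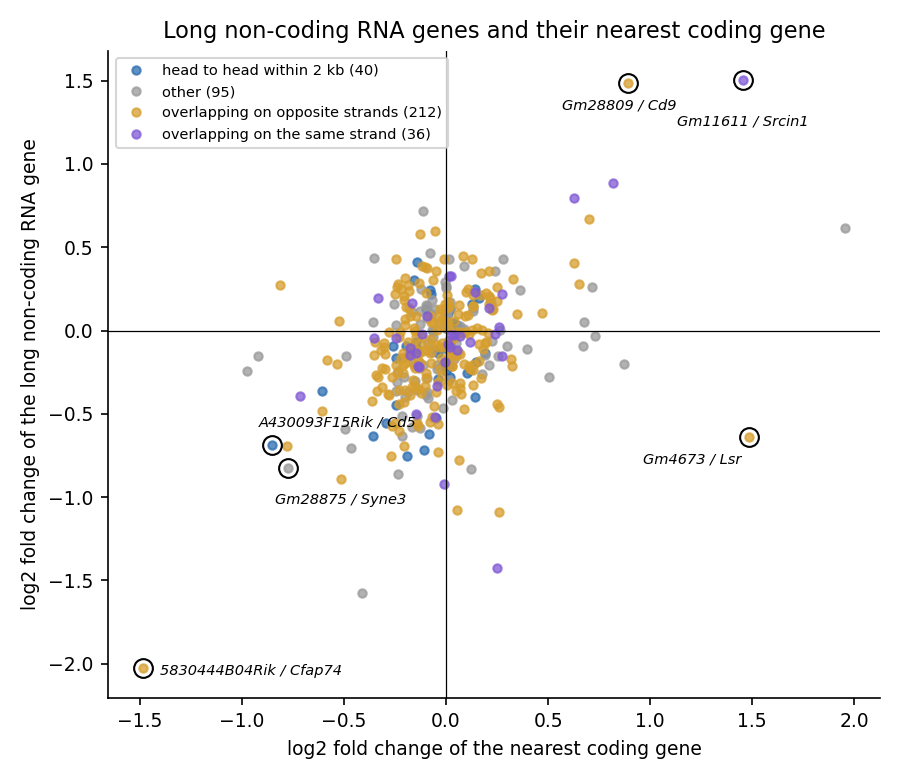
Each point is a long non-coding RNA gene, with the log2 fold change of its nearest coding gene on the x axis and its own on the y axis, knockout-labelled minus control-labelled; colours give the arrangement and circled points are the 6 pairs in which both genes were called. Of the circled pairs 5 lie in the quadrants of equal sign and Gm4673 with Lsr in that of opposite sign.

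Where the coding neighbour was called (26 pairs), 22 pairs had the same sign, and 34.6% of the long non-coding and of the coding genes were positive. Of these 26 pairs, 14 overlap on opposite strands, 4 overlap on the same strand and 8 do not overlap. Where the genes overlap, reads may be shared between partners. Both genes were called in 6 pairs, described above, of which Gm4673 with Lsr was the single pair with opposite signs. Some neighbours are well known in CD8+ T cells, and these were picked after their values were seen. Tcf7, a transcription factor of memory-forming T cells, stood at 8742 ± 1184 against 13427 ± 829 normalized counts (SD, n = 3 each) and rose by 0.63 (adjusted p = 0.0071). Gm26551, which spans Tcf7 on the same strand, stood at 42.9, 37.7 and 29.3 against 54.7, 66.8 and 70.4, without overlap (0.80 ± 0.23 SE, adjusted p = 0.0761), and A630014C17Rik, on the other strand, at 45.0, 32.7 and 46.1 against 51.0, 45.4 and 69.4, with overlap (0.41 ± 0.25 SE, adjusted p = 0.384). Zeb2, a transcription factor of terminal effector cells, fell by 0.78 (adjusted p = 0.0498), and its antisense gene Zeb2os stood at 74.6, 58.5 and 59.5 against 33.4, 52.9 and 33.7 (-0.69 ± 0.24 SE, adjusted p = 0.134). Of the exon bases of Zeb2os, 32.8% lie opposite exons of Zeb2.

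Genes for proteins that degrade or bind long non-coding RNAs were counted as well, beside 5.19% of all genes called. Of 22 tested genes of the nuclear exosome and its adaptors, 1 was higher (Mphosph6, an exosome-associated protein, 0.56, adjusted p = 0.0486) and 0 were lower. Of 17 genes of nonsense-mediated decay, 1 was lower (Smg6, its endonuclease, -0.30, adjusted p = 0.0455) and 0 were higher. Of 16 genes for Polycomb and other partners of chromatin-bound RNAs, 0 were called by limma.

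The RefSeq window of Snhg1 (GRCm38.p6, chr19:8723237-8723536, plus strand) is shown as that of the single higher gene that lies head to head with a coding gene; capitals mark the T-box letters GGTGTG, here on the other strand.
Snhg1 promoter: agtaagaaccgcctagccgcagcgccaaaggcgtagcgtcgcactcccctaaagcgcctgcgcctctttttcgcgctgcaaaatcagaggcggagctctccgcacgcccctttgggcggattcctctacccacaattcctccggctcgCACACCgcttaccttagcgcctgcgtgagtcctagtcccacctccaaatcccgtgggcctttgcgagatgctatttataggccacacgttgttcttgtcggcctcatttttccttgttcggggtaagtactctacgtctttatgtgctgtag
Windows were found for 203 genes of the set, 11 of them called. The T-box letters were in 3 of the 11, 22.2% of the 203 and 19.04% of all windows; the RUNX letters TGTGGT were in 2 of the 11, 16.7% of the 203 and 16.7% of all; and the ETS letters CCGGAA in 1 of the 11, 24.1% of the 203 and 14.98% of all.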

How the data were processed

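RNA sequencing of 6 samples of sorted CD8+ T cells was analysed. Values are a signal that the deposited table calls normalized counts: from the values, each sample's counts were divided by 1 factor by the authors, and 100% of values became whole reads (tolerance 0.01) once multiplied back. Per the submitters' processing notes the build was mm10; the aligner, the counting program and whether strand was used were not given in the sources used here. Of 13675 IDs, 13648 matched GENCODE M21 and 27 did not.

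Knockout-labelled minus control-labelled libraries were compared with limma 3.58.1 (R 4.3.3, two-sided, with a variance trend) on log2 values with a pseudocount of 1, over 13654 genes with a mean of at least 10. The pseudocount understates the change of low genes. A call is a Benjamini-Hochberg adjusted p below 0.05 over all genes tested; every adjusted p is from this fit unless another tool is named. SDs are between the 3 libraries of a group. No pair of libraries agreed within sampling noise (lowest chi-square 5.32 per degree of freedom). The fit was tested on simulated data. edgeR 4.0.16 and DESeq2 1.42.0 were run on the recovered reads as alternatives.

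The nearest coding gene is that with the smallest gap between gene bodies. The genes described and the gene lists were chosen with earlier results of these data known. The named genes are the called ones (up to 12 in each direction), the 10 of highest level, those beside the level limit, the nearest coding genes and up to 4 of each list. A430046D13Rik, 5830432E09Rik, the snoRNA-host grouping, Gm44174, Hspa1b and the neighbours of Tcf7 and Zeb2 were added after values were seen.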

Additional observations from a re-analysis of the deposited data

How the results depend on the processing

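Calls were 6 higher and 15 lower. edgeR gave 6 and 11 (4.72% of all genes called), DESeq2 7 and 18 (7.37%), and other pseudocounts, filters, TMM, quantile normalization and level limits of 10 or 100 stayed within 1.5 times. No variance trend gave 1 and 2 (1.03% of all genes called), array weights 17 and 45 (19.6%), and the B cell covariate 0 and 4 (0.857%). Without knockout-labelled libraries 2 and 3, limma called 0 and 0, and 0 of all genes (unadjusted p below 0.05 in 55 genes of the set and 1861 of all; edgeR was not run there). Leaving out single libraries gave 1 to 13 higher and 4 to 36 lower, pairs of the same sign in 55.9% to 61.6%, and medians of -0.19 to 0.005. The cause was not tested.

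Same-numbered libraries did not deviate together (correlations -0.54, -0.27 and -0.23). These deviations are from means of only 3 libraries, so they cannot decide whether the numbers pair the libraries. With a replicate block 1 was higher and 3 lower (1.44% of all genes called).

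Over 48 named genes, of 910 comparisons 713 kept direction and side of the threshold, 158 lost the call, 21 gained it and 18 reversed. With knockout-labelled libraries 2 and 3 left out, reversed values were 0.055 for Dleu2, 0.022 for Tug1 and 0.20 for Mir17hg. With the B cell covariate they were 0.028, 0.020 and 0.11. Array weights gave -0.018 for Gas5 and -0.025 for Miat, and quantile normalization 0.0083 for Malat1. Leaving out single libraries gave ranges of -0.016 to 0.12 for Gas5, -0.31 to 0.18 for Malat1, -0.22 to 0.79 for Miat, -0.31 to 0.21 for Mir17hg and -0.20 to 0.19 for Mir22hg.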
